A study of Homo sapiens with 9 samples.

Results

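The level of 10 plasma membrane amino acid transporter genes was followed across 9 RNA-seq libraries of HCT116, a long-established line of human colorectal cancer cells. The 10 members, of 60651 genes in the count table, were SLC7A11, SLC3A2, SLC7A5, SLC43A1, SLC1A4, SLC1A5, SLC7A1, SLC38A1, SLC38A2 and SLC6A9. They were taken by symbol and chosen by their values in these libraries and in the authors' comparisons, so their levels below are a description. All 10 passed the filter on low counts, with between 157 counts (SLC43A1) and 106764 counts (SLC7A5) in any library. Per the labels, every library came from HCT116 of wild-type genotype in 3 groups of 3. The first carried a control hairpin with DMSO, the solvent (shCTRL DMSO). The next carried a hairpin against the dopamine transporter gene SLC6A3 with DMSO (shSLC6A3 DMSO). The last carried the control hairpin with an agent named no further than VXN (shCTRL VXN). The title of its replicate 3 reads shCTRL VNN, and that library was placed by its treatment label, shCTRL VXN. The labels give neither a time of treatment nor a statement that replicates were separate cultures. Each p-value below therefore weighs a difference only against the spread of these libraries, and that spread may be technical.

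Amino acids cross the plasma membrane through carriers of several families. SLC3A2 (CD98) is a heavy chain that takes light chains to the cell surface, among them SLC7A5 (LAT1), which exchanges large neutral amino acids, and SLC7A11 (xCT), which imports cystine in exchange for glutamate and so feeds glutathione synthesis. When amino acids are short or the endoplasmic reticulum is stressed, the integrated stress response raises translation of the transcription factor ATF4, and several of these transporter genes are known ATF4 targets. Colorectal cancer cells take up glutamine and essential amino acids at high rates, and SLC7A5 and SLC1A5 are known for their high levels in such tumours.

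The labels and the authors' deposited tables did not place the same libraries together, and this bears on every result below. The authors deposited 2 comparisons, in which columns called shCTRL V and columns called shDAT D were each set against columns called shCTRL D. A DESeq2 rerun gave all 38907 p-values of each table within 1e-04 when the columns were grouped as follows. The shCTRL V columns held shCTRL VXN replicate 3, shCTRL DMSO replicate 3 and shSLC6A3 DMSO replicate 1 by their labels. Columns of shDAT D were labelled shCTRL DMSO replicates 1 and 2 and shCTRL VXN replicate 1. The shCTRL D columns were labelled shSLC6A3 DMSO replicates 2 and 3 and shCTRL VXN replicate 2. The labelled groups gave 0.00258% and 1.43% of those p-values within the same tolerance. Within the shCTRL D columns, shCTRL VXN replicate 2 stood apart: over 20402 features its log2 levels correlated at r = 0.994 with shCTRL DMSO replicate 1 and at r = 0.984 with shSLC6A3 DMSO replicate 2. Libraries are named by their labels throughout, and no treatment is read from the levels of a library. The hairpin's target SLC6A3 had 6, 2 and 2 counts in shCTRL DMSO replicates 1 to 3, 3, 1 and 0 in shSLC6A3 DMSO replicates 1 to 3 and 0, 3 and 2 in shCTRL VXN replicates 1 to 3, too few to check the labels of the knockdown. Total counts per library were between 30251364 and 60215785.

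Of 8 colon epithelial markers, 6 were at 1 CPM (counts per 1e+06 counts of the library, scaled between libraries by TMM) or more in the median library, including EPCAM at 322 to 404 CPM, while VIL1 and CDX1 were at or near 0. All 5 leukocyte markers stayed below 1 CPM in every library, with a summed level of 0.193 to 0.885 CPM. Of 5 fibroblast markers only COL1A1 exceeded 1 CPM, at 18.9 to 47.5 CPM, and of 3 endothelial markers only VWF did, with at most 1.18 CPM. In bulk RNA, fewer cells of a type and less RNA per cell cannot be told apart.

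**Figure D1:**
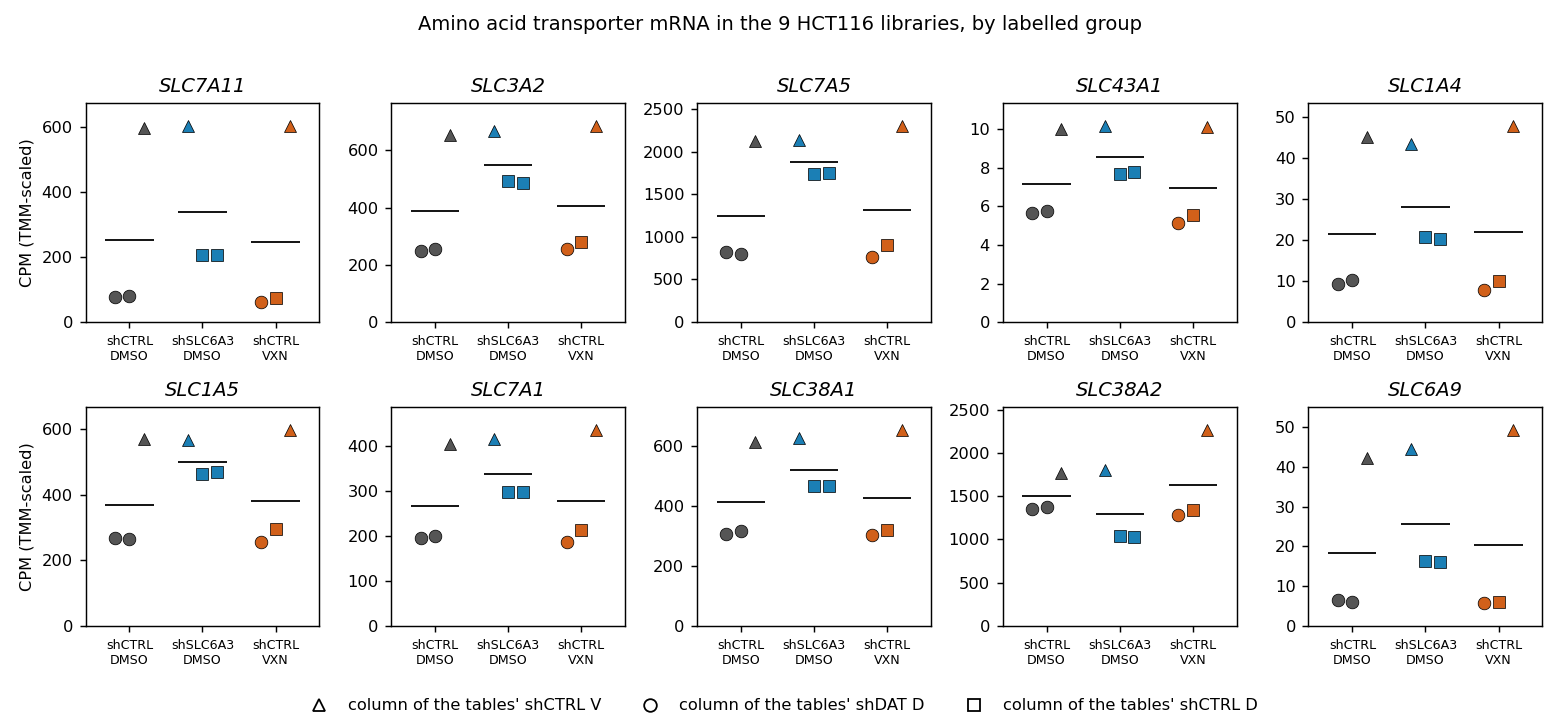
CPM of each transporter (vertical axis, from 0) in the 9 libraries by labelled group; bars are group means and marker shapes show the column trio of the authors' tables. In each labelled group 1 library, always a triangle, lies above the others of that group for all 10 genes.

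SLC7A11 spanned the widest range of the members, 9.55-fold from the lowest to the highest library. The gene (ENSG00000151012.13, GRCh38 chromosome 4, 138164097 to 138242349, minus strand) had 76.9, 79.0 and 597 CPM in shCTRL DMSO replicates 1 to 3. Its level was 601, 207 and 205 CPM in shSLC6A3 DMSO replicates 1 to 3, and 63.0, 75.5 and 601 CPM in shCTRL VXN replicates 1 to 3. The 3 libraries near 600 CPM are 1 from each labelled group, and they are the shCTRL V columns. The shDAT D columns were the lowest apart from shCTRL VXN replicate 2, whose 75.5 CPM lay inside their range. SLC6A9, the glycine transporter GlyT1 (ENSG00000196517.13, chromosome 1, 43991500 to 44031467, minus strand), varied in nearly the same way at a far lower level. Its values were 6.48, 6.11 and 42.3 CPM in shCTRL DMSO, 44.5, 16.4 and 16.1 CPM in shSLC6A3 DMSO, and 5.86, 6.04 and 49.2 CPM in shCTRL VXN. The same 3 libraries were again the highest. Of 9959 genes with a mean of at least 10 CPM, SLC6A9 was the one whose centred log2 CPM over the 9 libraries lay nearest to SLC7A11, with a root mean square difference of 0.11. The next were NIBAN1 at 0.26 and SERPINB8 at 0.30. SLC6A9 overlaps CCDC24 on the opposite strand, whose mean count level was 59.7% of that of SLC6A9. The kit named in the labels does not mark strand, so reads in the shared stretch cannot be assigned to either gene.

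The heavy chain and LAT1 varied less than SLC7A11 and followed each other closely. SLC3A2 (ENSG00000168003.18, chromosome 11, 62856102 to 62888875, plus strand) was at 249, 255 and 655 CPM in shCTRL DMSO, at 667, 492 and 485 CPM in shSLC6A3 DMSO and at 255, 281 and 684 CPM in shCTRL VXN. SLC7A5 (ENSG00000103257.9, chromosome 16, 87830023 to 87869488, minus strand) was at 824, 795 and 2121 CPM, at 2139, 1736 and 1744 CPM and at 763, 902 and 2296 CPM in the same order. For both genes the shCTRL V columns were highest, shSLC6A3 DMSO replicates 2 and 3 came next, and the remaining 4 libraries were lowest. The gene nearest to SLC7A5 was SLC3A2, with a root mean square difference of 0.08. The 3 nearest to SLC3A2 were GPT2, an alanine aminotransferase, the transcription factor ETV5 and the glycyl-tRNA synthetase GARS1, at 0.06, 0.07 and 0.08. The copies SLC7A5P1 and SLC7A5P2 were counted at 0.59 and 0.58 CPM on average, under 1 CPM each, so little signal was assigned to them; a split of reads between near-identical copies was not tested. The microRNA gene MIR6775 lies within SLC7A5 on the same strand and was counted at 8.95 CPM. SLC43A1, the facilitated carrier LAT3 for the same large neutral amino acids (ENSG00000149150.9, chromosome 11, 57484534 to 57515786, minus strand), was the member with the lowest level and the narrowest range, 1.97-fold. It was at 5.68, 5.76 and 10.01 CPM in shCTRL DMSO, at 10.1, 7.70 and 7.80 CPM in shSLC6A3 DMSO and at 5.14, 5.53 and 10.1 CPM in shCTRL VXN.

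Because SLC7A11 and SLC7A5 both pair with SLC3A2, their levels per length were set against it within each library, a ratio that does not depend on scaling between libraries. The ratio of SLC7A11 to SLC3A2, in CPM per kilobase of exon, was 0.490, 0.484 and 0.472 in the shCTRL V columns. It was 0.166, 0.167 and 0.133 in the shDAT D columns. In the shCTRL D columns it was 0.226 and 0.227 in shSLC6A3 DMSO replicates 2 and 3 and 0.144 in shCTRL VXN replicate 2. The ratio of SLC7A5 to SLC3A2 stayed between 3.27 and 3.92 in all 9 libraries. Relative to the heavy chain, the cystine light chain varied more between libraries than LAT1 did.

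**Figure D2:**
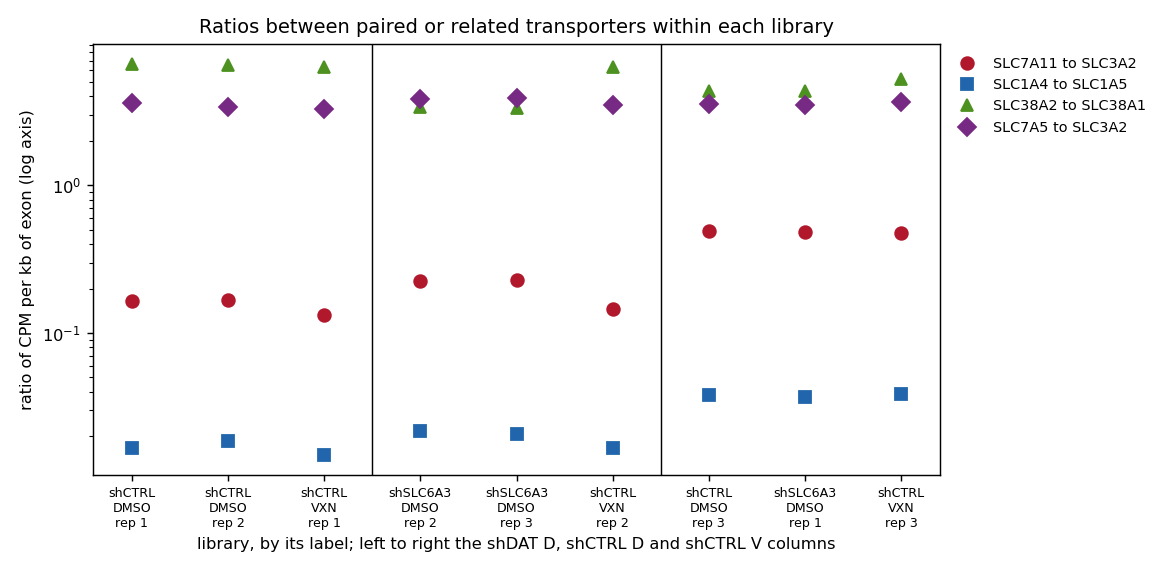
Ratio of CPM per kilobase of exon between related transporters in each library (log axis), libraries ordered by the columns of the authors' tables. SLC7A11 to SLC3A2 lies at 0.472 to 0.490 in the shCTRL V columns and at 0.227 or below elsewhere, while SLC7A5 to SLC3A2 stays between 3.27 and 3.92.

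The ASC exchangers SLC1A4 and SLC1A5 carry alanine, serine and cysteine, and SLC1A5 (ASCT2) is a main glutamine importer. SLC1A5 (ENSG00000105281.12, chromosome 19, 46774883 to 46788594, minus strand) was at 267, 266 and 568 CPM in shCTRL DMSO, at 566, 462 and 470 CPM in shSLC6A3 DMSO and at 255, 295 and 596 CPM in shCTRL VXN. SLC1A4 (ASCT1; ENSG00000115902.11, chromosome 2, 64988477 to 65023865, plus strand) was at 9.23, 10.2 and 45.3 CPM, at 43.6, 20.8 and 20.3 CPM and at 7.93, 10.1 and 47.8 CPM in the same order. The order of the libraries was alike, but SLC1A4 spanned 6.03-fold and SLC1A5 2.33-fold. The genes nearest to SLC1A5 were the methionyl-tRNA synthetase MARS1 at 0.04, the mitochondrial folate enzyme MTHFD2 at 0.07 and SLC7A1 at 0.08. Those nearest to SLC1A4 were PCK2, a mitochondrial enzyme that makes phosphoenolpyruvate, at 0.09, the pseudokinase TRIB3 at 0.10 and the tryptophanyl-tRNA synthetase WARS1 at 0.11.

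SLC7A1 (CAT1; ENSG00000139514.13, chromosome 13, 29509410 to 29595688, minus strand) imports arginine and lysine. Its values were 196, 201 and 403 CPM in shCTRL DMSO, 414, 298 and 298 CPM in shSLC6A3 DMSO and 187, 212 and 434 CPM in shCTRL VXN. SLC38A1 (SNAT1; ENSG00000111371.16, chromosome 12, 46183063 to 46270017, minus strand), a sodium-coupled glutamine carrier, was at 307, 316 and 614 CPM, at 627, 468 and 469 CPM and at 305, 319 and 653 CPM in the same order. These were the closest pair among the members, with a root mean square difference of 0.04 between their centred profiles.

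SLC38A2 (SNAT2, ENSG00000134294.14, chromosome 12, 46358189 to 46372867, minus strand), a sodium-coupled carrier of small neutral amino acids, departed from the other members in the order of the libraries. It was at 1353, 1371 and 1773 CPM in shCTRL DMSO, at 1798, 1039 and 1029 CPM in shSLC6A3 DMSO and at 1281, 1341 and 2261 CPM in shCTRL VXN. The shCTRL V columns were again the highest, but the 2 lowest libraries were shSLC6A3 DMSO replicates 2 and 3, which were intermediate for the other 9 members. The same 2 libraries were lowest for some genes of the integrated stress response, among them ATF3, PPP1R15A and CTH. The ratio of SLC38A2 to SLC38A1 per length was 3.37 and 3.33 in those 2 libraries, 4.35 to 5.25 in the shCTRL V columns and 6.37 to 6.69 in the remaining 4. None of the 3 genes nearest to SLC38A2, which were CTIF, MSLN and PKD1P1, is a transporter of amino acids; PKD1P1 is a pseudogene with near-identical copies and its level is uncertain.

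Per kilobase of exon, SLC7A5 and SLC38A2 were the most abundant members, with means over the 9 libraries of 312 ± 137 and 223 ± 60.6 CPM per kilobase (SD, n = 9). SLC7A5 exceeded SLC38A2 in 5 of 9 libraries, so the order of those neighbours was not the same throughout. SLC1A5 at 125 ± 43.5, SLC3A2 at 86.3 ± 36.9, SLC38A1 at 45.2 ± 14.8 and SLC7A1 at 38.2 ± 13.2 CPM per kilobase (SD, n = 9) followed in that order in all 9 libraries. SLC7A11, at 28.9 ± 25.6 CPM per kilobase, lay below SLC7A1 in 6 of 9 libraries and above it in the other 3. SLC6A9 at 4.16 ± 3.58, SLC1A4 at 3.45 ± 2.44 and SLC43A1 at 2.14 ± 0.602 CPM per kilobase (SD, n = 9) were the lowest. SLC6A9 exceeded SLC1A4 in 5 of 9 libraries and SLC1A4 exceeded SLC43A1 in 5 of 9. These SDs are taken over libraries of all groups and so include any difference between groups.

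**Figure D3:**
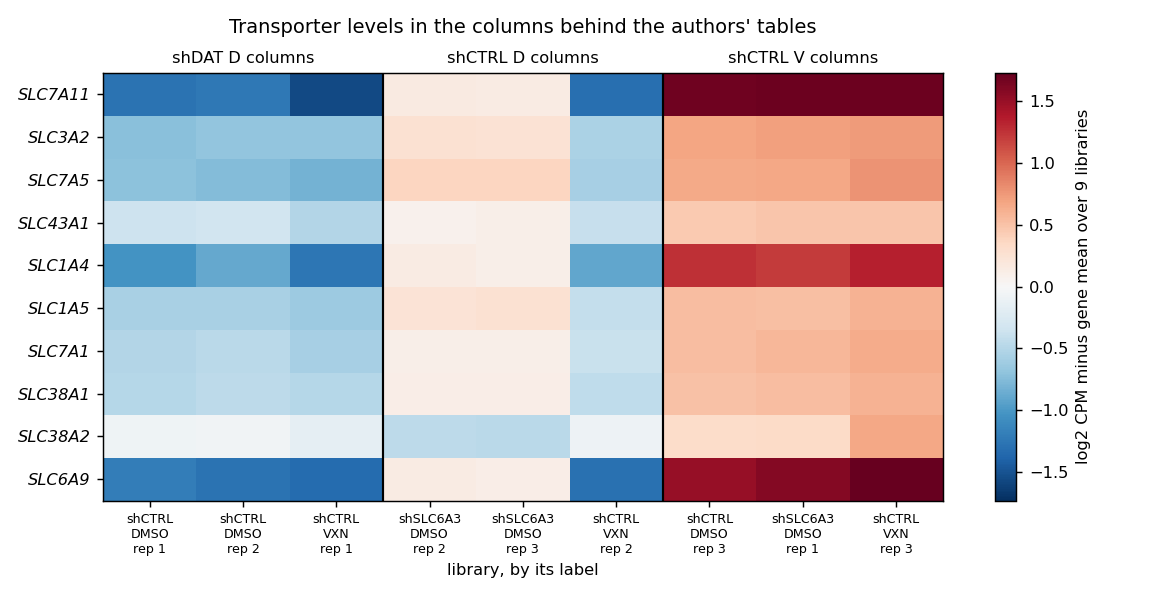
Log2 CPM of each transporter minus its mean over the 9 libraries (colour), libraries ordered by the columns of the authors' tables. The shCTRL V columns are highest for every gene, shCTRL VXN replicate 2 resembles the shDAT D columns more than its own trio, and SLC38A2 is lowest in shSLC6A3 DMSO replicates 2 and 3.

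Promoters of the members are shown where they hold the letters TGATGNAA on either strand. This is a form of the composite element bound by ATF4 with C/EBP partners. RefSeq windows on GRCh38.p14 ran from 250 bases before to 50 after each start. They were found for 9 of the 10 members, 16 windows in all. SLC7A11 had no window and could not be searched. Of the 16 windows, 5 (31.2%), each of a different gene, held the element, against 3.62% of 35116 windows of the same length over all genes. The core of the antioxidant response element, TGACNNNGC, was in 4 of 16 windows (25.0%) against 13.3%, and the E-box CACGTG was in 3 of 16 (18.8%) against 7.26%. The windows share genes and were not tested, and a match is a run of letters, not a bound site. Which start the cells use was not measured, and SLC1A5, SLC38A1, SLC1A4, SLC3A2 and SLC43A1 have more than 1 window. In the 5 sequences below, written 5′ to 3′ on the strand of the gene, capitals mark matches to TGATGNAA (or its reverse complement) and to TGACNNNGC. They lie at chr11:62881449-62881748 (SLC3A2, plus), chr2:64989149-64989448 (SLC1A4, plus), chr19:46784765-46785064 (SLC1A5, minus), chr13:29595639-29595938 (SLC7A1, minus) and chr12:46266467-46266766 (SLC38A1, minus).
SLC3A2: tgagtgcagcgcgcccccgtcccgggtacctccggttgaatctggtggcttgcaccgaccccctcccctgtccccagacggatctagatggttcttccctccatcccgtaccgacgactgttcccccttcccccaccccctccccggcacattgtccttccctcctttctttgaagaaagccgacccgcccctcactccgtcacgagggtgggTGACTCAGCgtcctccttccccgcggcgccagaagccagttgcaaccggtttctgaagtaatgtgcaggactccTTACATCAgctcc
SLC1A4: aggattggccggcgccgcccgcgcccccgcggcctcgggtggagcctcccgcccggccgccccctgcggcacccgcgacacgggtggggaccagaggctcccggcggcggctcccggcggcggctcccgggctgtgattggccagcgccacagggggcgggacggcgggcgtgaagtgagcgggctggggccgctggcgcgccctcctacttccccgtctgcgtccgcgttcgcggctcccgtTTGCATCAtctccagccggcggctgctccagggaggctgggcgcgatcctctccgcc
SLC1A5: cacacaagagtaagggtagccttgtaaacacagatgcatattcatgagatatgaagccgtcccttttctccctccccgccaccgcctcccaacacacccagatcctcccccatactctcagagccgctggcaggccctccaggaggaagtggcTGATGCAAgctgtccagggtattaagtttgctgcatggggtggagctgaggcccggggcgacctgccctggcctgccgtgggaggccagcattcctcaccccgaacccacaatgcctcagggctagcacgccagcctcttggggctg
SLC7A1: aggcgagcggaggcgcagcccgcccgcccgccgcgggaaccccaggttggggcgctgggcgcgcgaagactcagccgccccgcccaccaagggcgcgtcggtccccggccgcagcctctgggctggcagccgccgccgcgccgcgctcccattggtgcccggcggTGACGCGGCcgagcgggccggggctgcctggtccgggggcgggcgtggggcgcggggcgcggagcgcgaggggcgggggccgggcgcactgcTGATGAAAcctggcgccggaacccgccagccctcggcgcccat
SLC38A1: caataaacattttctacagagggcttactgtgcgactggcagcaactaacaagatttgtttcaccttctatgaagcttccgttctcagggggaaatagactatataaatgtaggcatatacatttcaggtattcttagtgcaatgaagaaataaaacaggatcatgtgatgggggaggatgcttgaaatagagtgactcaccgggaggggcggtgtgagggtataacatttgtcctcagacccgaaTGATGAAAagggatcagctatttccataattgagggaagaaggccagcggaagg
The element began 97 bases upstream of the start in SLC1A5 (TGATGCAA), 7 upstream in SLC1A4 (TTGCATCA, on the reverse strand) and 4 upstream in SLC38A1 (TGATGAAA). In SLC7A1 it began 7 bases downstream (TGATGAAA), and in SLC3A2 it began 37 bases downstream (TTACATCA, on the reverse strand). For SLC3A2, SLC1A4, SLC1A5 and SLC38A1 the matched start lay inside the gene, and their other windows did not hold the element. SLC3A2 and SLC7A1 also held the antioxidant core, as TGACTCAGC 37 bases upstream and TGACGCGGC 85 bases upstream. SLC6A9 and SLC38A2 held none of the 3 motifs in their windows, 1 window each. SLC7A5 and SLC43A1 also lacked TGATGNAA. The SLC7A5 window held the antioxidant core and an E-box, and SLC43A1 held an E-box in 1 window. Matches were thus not found in all members with a like order of libraries, and whether the motifs bear on the levels was not tested.

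None of the 10 transporters passed the test between the labelled groups. The knockdown comparison, shSLC6A3 DMSO against shCTRL DMSO, asks what the hairpin against the dopamine transporter changes. The mean of SLC7A5 over 3 libraries was 1873 ± 231 CPM (SD) with the SLC6A3 hairpin and 1247 ± 757 CPM (SD) with the control hairpin, with a log2 fold change of 0.59 (SE 0.51). For SLC7A11 the means were 338 ± 228 and 251 ± 300 CPM (SD, n = 3), with a log2 fold change of 0.43 (SE 1.11). Single libraries decided these values: without shCTRL DMSO replicate 3 they were 1.21 for SLC7A5 and 2.12 for SLC7A11, and without shSLC6A3 DMSO replicate 1 they were 0.48 and -0.29. The groups overlapped for both genes, as the plot of CPM by labelled group shows. Fold changes of 9 members were positive and that of SLC38A2 was -0.22 (SE 0.30), and the member median was 0.41 beside -0.01 over all features. The adjusted p from edgeR's quasi-likelihood test was 0.999 for each member, and for 0 of 10 members were all 3 libraries above or all below those of shCTRL DMSO, where 4.02% and 4.81% of 20402 features were. Over all features edgeR called 0 (0.00%) and DESeq2 also 0, with 930 features (4.56%) at an unadjusted p below 0.05 by edgeR.

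In shCTRL VXN against shCTRL DMSO the members' fold changes were nearer to 0. SLC7A11 averaged 247 ± 307 CPM (SD, n = 3) in shCTRL VXN, with a log2 fold change of -0.03 (SE 1.11), and SLC7A5 1321 ± 848 CPM, with 0.08 (SE 0.50). The member furthest from 0 was SLC6A9 at 0.16 (SE 1.06), and the member median was 0.06 beside 0.00 over all features. The adjusted p from edgeR was 0.99998 for each member. The groups overlapped for all 10, where 3.31% of features lay higher and 3.03% lower in every shCTRL VXN library. Over all features edgeR called 2 (0.00980%), the microRNA genes MIR6797 and MIR6856, both lower and named here after their values were seen. DESeq2 called 18. edgeR called 0 without a filter on low counts, with the replicate number as a block, with only the 2 groups in the fit or without any 1 library. Leaving out 1 library also turned the sign of each member here, SLC7A11 lying between -1.86 and 1.67. Beside these SEs, SLC7A11 ranged 7.77-fold among the shCTRL DMSO libraries and 9.54-fold among the shCTRL VXN libraries.

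In the authors' comparisons all 10 members were higher in the shCTRL V columns. They were chosen with these values in view, so the values are given as a description. In the authors' deposited table for shCTRL V against shCTRL D, 10 of 10 members were higher at an adjusted p below 0.05, where 21.4% of 24274 features were higher and 22.7% lower, 44.0% in either direction. The largest log2 fold changes in the authors' deposited table were those of SLC7A11 at 1.71 (SE 0.39), SLC6A9 at 1.65 (SE 0.38) and SLC1A4 at 1.33 (SE 0.22). SLC38A2 was at 0.74 (SE 0.12), SLC3A2 at 0.60 (SE 0.17), SLC7A1 at 0.58 (SE 0.13) and SLC38A1 at 0.53 (SE 0.13) in the authors' deposited table. SLC7A5 at 0.50 (SE 0.19), SLC43A1 at 0.47 (SE 0.15) and SLC1A5 at 0.44 (SE 0.15) were the lowest there, and the median of the 10 in the authors' deposited table was 0.59, beside 0.00 over features with an adjusted p. For all 10 genes each shCTRL V column lay above each shCTRL D column, as was so for 31.6% of features, while 28.8% lay lower throughout. SLC7A11 ranged from 75.5 to 207 CPM in the shCTRL D columns and from 597 to 601 CPM in the shCTRL V columns, while SLC38A2 ranged 1.30-fold and 1.27-fold in them. Without shCTRL VXN replicate 2, a DESeq2 rerun gave 1.496 (SE 0.07) for SLC7A11, 0.29 (SE 0.05) for SLC7A5, 0.27 (SE 0.04) for SLC1A5 and 0.86 (SE 0.08) for SLC38A2. All 10 members were called higher in each of the 6 reruns with 1 library left out.

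**Figure D4:**
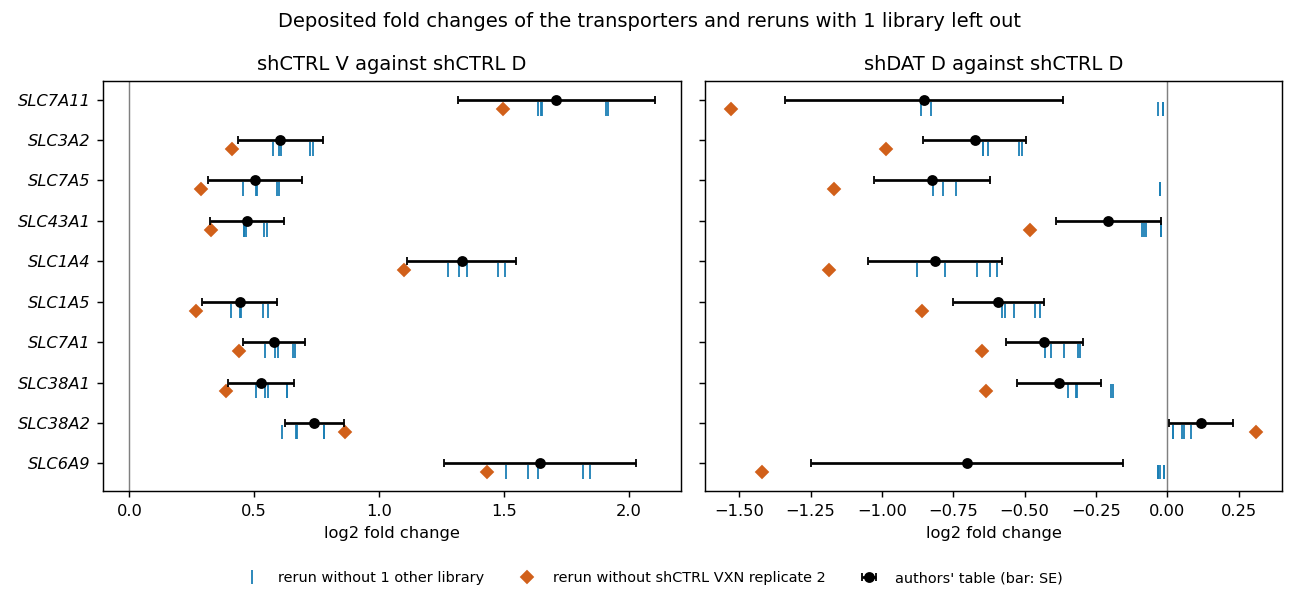
Log2 fold change of each transporter in the authors' deposited tables (points, bars are SE) and in DESeq2 reruns with 1 library left out (ticks, and a diamond for shCTRL VXN replicate 2). All values lie above 0 on the left, and on the right the diamond lies farthest from 0 for every gene.

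Of the 10 members, 7 were lower and 0 higher for shDAT D against shCTRL D in the authors' deposited table at an adjusted p below 0.05, where 5.62% of 10403 features were lower and 1.0% higher, 6.62% in either direction. The authors' deposited table gave SLC7A11 at -0.85 (SE 0.49), SLC7A5 at -0.82 (SE 0.20), SLC1A4 at -0.81 (SE 0.24), SLC3A2 at -0.68 (SE 0.18), SLC1A5 at -0.59 (SE 0.16), SLC7A1 at -0.43 (SE 0.14) and SLC38A1 at -0.38 (SE 0.15). The remaining 3 in the authors' deposited table were SLC6A9 at -0.70 (SE 0.55; the adjusted p from DESeq2 was 0.0509), SLC43A1 at -0.21 (SE 0.18) with no adjusted p, and SLC38A2 at 0.12 (SE 0.11). The member median was -0.63 in the authors' deposited table, beside -0.04 over features with an adjusted p. SLC7A5, SLC3A2, SLC1A5, SLC7A1 and SLC38A1 were lower in each shDAT D column than in each shCTRL D column, 5 of 10 where 9.96% of features were, and 0 of 10 were higher throughout, where 8.85% of features were. The 7 calls depended on the libraries and the tool. In DESeq2 reruns 9 members were lower and 1, SLC38A2, higher without shCTRL VXN replicate 2. SLC7A11 was then at -1.53 (SE 0.07) and SLC38A2 at 0.31 (SE 0.08). That rerun called 7890 of all features, beside 689 in the authors' deposited table, so the added calls were not particular to the members. Without shSLC6A3 DMSO replicate 2 or 3, shCTRL DMSO replicate 2 or shCTRL VXN replicate 1, 0 members were called, and without shCTRL DMSO replicate 1, 3 were. The shrunken fold changes lay near 0 without shSLC6A3 DMSO replicate 3, at -0.014 for SLC7A11 and -0.024 for SLC7A5, and were -0.014 and -0.025 without shSLC6A3 DMSO replicate 2. Without shCTRL VXN replicate 1, SLC7A11 was at -0.034 and SLC7A5 at -0.74. edgeR on the same columns called 0 members, with an adjusted p of 0.187 for each of the 7. Both tables share the shCTRL D columns, so the opposite signs of the members in them are not independent.

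No deposited table compares shCTRL V with shDAT D. For all 10 members each shCTRL V column lay above each shDAT D column, as did 35.0% of features, while 34.6% lay below. SLC7A5 was at 2121 to 2296 CPM against 763 to 824 CPM, and SLC1A4 at 43.6 to 47.8 CPM against 7.93 to 10.2 CPM.

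Other amino acid transporters were mixed, and no test set them against the members. Of 31 further plasma membrane and lysosomal transporters, 27 had an adjusted p in the authors' deposited table for shCTRL V, and 6 of these were higher and 13 lower, beside 21.4% and 22.7% of all features. Their median log2 fold change was -0.24 over the 23 with a mean of at least 1 CPM. Among called genes at that level, the lowest in the authors' deposited table were the cationic carrier SLC7A2 at -2.58 (SE 0.09), the aromatic amino acid carrier SLC16A10 at -2.18 (SE 0.19) and SLC43A3 at -2.14 (SE 0.16), a relative of SLC43A1 that carries purine bases. SLC7A2, which shares its cationic substrates with SLC7A1, was at 4.59 to 5.47 CPM in the shCTRL V columns and at 27.7 to 30.7 CPM in the other 6 libraries. The highest in the authors' deposited table were SLC66A1, a lysosomal exporter of cationic amino acids, at 0.79 (SE 0.11), SLC38A7, a lysosomal glutamine exporter, at 0.62 (SE 0.13) and SLC38A10 at 0.61 (SE 0.06). SLC38A7 had the order of libraries seen for the members other than SLC38A2, with 24.8 to 26.5 CPM in the shCTRL V columns, 17.2 and 17.9 CPM in shSLC6A3 DMSO replicates 2 and 3 and 11.2 to 12.8 CPM in the other 4. For shDAT D, 4 of the 19 with an adjusted p were lower and 0 higher by the authors' deposited table. Of all features, 5.62% were lower and 1.0% higher. By the naming rule the lower transporters included SLC38A7 at -0.35 (SE 0.15), the lysosomal cystine exporter CTNS at -0.33 (SE 0.15) and SLC38A5 at -0.30 (SE 0.14), as the authors' deposited table has them. Of 11 mitochondrial amino acid carriers, 10 had an adjusted p in the authors' deposited table for shCTRL V, with 1 higher and 5 lower, among them the serine carrier SFXN1 at -0.81 (SE 0.06) and the ornithine carrier SLC25A15 at -0.79 (SE 0.08).

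Genes of the integrated stress response showed the pattern of the transporters in part. In the authors' deposited table for shCTRL V, 18 of 24 listed genes with an adjusted p were higher, beside 21.4% of all features. The 1 lower in the authors' deposited table was ALDH18A1 at -0.34 (SE 0.06), beside 22.7% of all features. The list median there was 0.85. The authors' deposited table gave ATF4 itself 0.51 (SE 0.10), with 776 to 793 CPM in the shCTRL V columns, 572 and 587 CPM in shSLC6A3 DMSO replicates 2 and 3 and 426 to 453 CPM in the other 4 libraries. ASNS, the asparagine synthetase, was at 340 to 343 CPM in the shCTRL V columns, 253 CPM in both shSLC6A3 DMSO replicates 2 and 3 and 92.0 to 102 CPM in the other 4, an order of libraries like that of SLC7A11. SESN2, a leucine sensor upstream of mTORC1, showed another order, at 164 to 176 CPM in the shCTRL V columns and 37.1 to 42.0 CPM in the other 6. The authors' deposited table gave SESN2 2.05 (SE 0.07), next to NUPR1 at 3.50 (SE 0.33) and the secreted factor GDF15 at 2.58 (SE 0.11). For shDAT D the authors' deposited table had 9 of 23 lower and 0 higher, beside 5.62% and 1.0% of all features. The lower genes were led in the authors' deposited table by the serine synthesis genes PSAT1 at -0.97 (SE 0.39) and PHGDH at -0.78 (SE 0.21) and by ASNS at -0.85 (SE 0.41). The list was known from earlier results to change in the shCTRL V comparison and is no independent evidence.

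Genes that use glutamine and cystine inside the cell were mixed. In the authors' deposited table for shCTRL V, 7 of 15 with an adjusted p were higher and 3 lower, beside 21.4% and 22.7% of all features. The higher included the glutathione-degrading enzyme CHAC1 at 1.88 (SE 0.10) and the subunits of the first enzyme of glutathione synthesis, GCLC at 1.62 (SE 0.13) and GCLM at 1.31 (SE 0.29), in the authors' deposited table. The lower were GGT1 at -0.61 (SE 0.12), GOT2 at -0.53 (SE 0.08) and GPX4, which reduces lipid peroxides, at -0.35 (SE 0.06) in the authors' deposited table. With shDAT D, 5 of 15 were lower and 0 higher by the authors' deposited table, beside 5.62% and 1.0% of all features. The lower included GPT2 at -0.57 (SE 0.20) and GOT1 at -0.23 (SE 0.10) in the authors' deposited table.

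Genes of amino acid sensing upstream of mTORC1 numbered 24 in the table. The authors' deposited table for shCTRL V had 9 of these higher and 7 lower, beside 21.4% and 22.7% of all features. The list median there was 0.07. RRAGC was among the higher in the authors' deposited table at 0.90 (SE 0.11), and the lowest were FNIP2 at -1.46 (SE 0.11), SESN3 at -0.93 (SE 0.26) and RRAGD at -0.74 (SE 0.13). For shDAT D, 1 of 21, NPRL3 at -0.23 (SE 0.07), was lower by the authors' deposited table and 0 were higher. Over all features 5.62% were lower and 1.0% higher, so this count was near the share of all features.

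Cell division genes were lowest in the shCTRL V columns, where the members were highest. The summed level of the 10 listed genes was 329 to 382 CPM in the shCTRL V columns and 1955 to 2292 CPM in the other 6 libraries. It was 2292 and 2273 CPM in shSLC6A3 DMSO replicates 2 and 3, where SLC7A5 and SLC7A11 were 1736 to 1744 and 205 to 207 CPM, above the 4 lowest libraries. All 10 division genes were lower in the authors' deposited table for shCTRL V, where 22.7% of all features were lower. MKI67 at -3.06 (SE 0.09), CDK1 at -2.76 (SE 0.12) and CENPF at -2.71 (SE 0.09) led them in the authors' deposited table. In that for shDAT D 0 of 10 were called, beside 6.62% of all features in either direction. The part of the division genes in the transporter levels was not tested.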

How the data were processed

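RNA of 9 HCT116 libraries was sequenced after TruSeq RNA v2 preparation, per the labels' protocols. The submitters' processing notes name fastp 0.20.1, FastQC 0.11.9, STAR, GRCh38 and DESeq2 1.34.0; for the counting program and annotation, no name is given (not given in the sources used here). Raw counts per gene and repeat subfamily were deposited by the authors. The log2 fold changes and their SEs, the p-values and adjusted p-values, and the base mean (a signal of normalised counts) were deposited by the authors in 2 tables.

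The labelled comparisons used the quasi-likelihood test of edgeR 4.0.16 (TMM scaling, R 4.3.3) on 20402 features kept by its filter, all 9 libraries in 1 fit, with Benjamini-Hochberg adjustment and a threshold of 0.05. DESeq2 1.42.0, other scaling, no filter, a replicate block, the 2 groups alone and single libraries left out were tried. The fits were run on simulated counts with known changes and the same spread for every gene. That checks the code and not the power of these comparisons. DESeq2 with apeglm 1.24.0 shrinkage was rerun on the tables' columns, whose assignment came from an earlier search over the values and describes the authors' contrasts only.

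Levels are TMM-scaled CPM; lengths are merged GENCODE v29 exons, whose release may differ from the authors'. Members and gene lists were chosen with earlier results of these data known. From each list, up to 3 genes per direction and table were named, among called genes with a mean of at least 1 CPM; ATF4 falls outside that rule and was named after its values were seen, some genes under the rule are not reported here, and the sensing list's KICS2 was not matched by symbol. Promoter sequences are from RefSeq, GRCh38.p14.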

Additional observations from a re-analysis of the deposited data

How the results depend on the processing

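With the labelled groups, 0 members were called under any setting tried. DESeq2 gave no adjusted p for SLC7A11 and SLC6A9 in either labelled comparison, so it could not call them. The knockdown comparison called 0 features in every setting. The shCTRL VXN comparison called 2, and 18 with DESeq2, and 0 with no filter, with only the 2 groups compared or without any 1 library (0 to 0). With the replicate block it also called 0, and SLC1A4 turned to -0.013; same-numbered libraries had deviations correlating between -0.67 and 0.88, so the numbers were not taken as pairs. Leaving out 1 library turned signs: in shCTRL VXN the ranges were -1.86 to 1.67 for SLC7A11, -0.58 to 0.71 for SLC7A5, -0.53 to 0.69 for SLC3A2, -1.25 to 1.18 for SLC1A4, -0.42 to 0.52 for SLC1A5, -0.42 to 0.49 for SLC7A1, -0.40 to 0.45 for SLC38A1, -0.19 to 0.26 for SLC38A2, -1.62 to 1.70 for SLC6A9 and -0.42 to 0.28 for SLC43A1. In shSLC6A3 DMSO they were -0.29 to 2.12 for SLC7A11, -0.069 to 1.54 for SLC1A4 and -0.17 to 2.03 for SLC6A9, and the other 7 members kept their sign but not their size, as with SLC7A5 at 0.35 to 1.21. The replicate block moved SLC7A11 there from 0.43 to 1.41, SLC6A9 from 0.49 to 1.36 and SLC1A4 from 0.39 to 0.97, none called.

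For shCTRL V against shCTRL D, all 80 member values under the alternatives kept direction and call. For shDAT D against shCTRL D, the authors' 689 called features became 0 with edgeR and 0 to 7890 in reruns without 1 library, the highest without shCTRL VXN replicate 2; the cause was not tested. Signs were kept in that comparison, but without 1 library the shrunken fold changes ranged from -1.53 to -0.014 for SLC7A11, from -1.17 to -0.024 for SLC7A5 and from -1.42 to -0.011 for SLC6A9. Depth was lowest for SLC43A1, with 157 counts in 1 library.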
